A study of Mus musculus with 28 samples.

Results

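Fatty acid oxidation shortens acyl chains to acetyl-CoA, and in the colon it is the main use that absorptive colonocytes make of butyrate and other fatty acids. Fatty acids are bound by fatty acid binding proteins, activated to acyl-CoA by synthetases, carried into mitochondria by the carnitine shuttle and then taken through repeated rounds of dehydrogenation, hydration, a second dehydrogenation and thiolysis, with a parallel pathway in peroxisomes. Peroxisome proliferator-activated receptors (PPARs) are nuclear receptors that pair with RXR, bind fatty acid ligands and raise the transcription of many of these enzymes, with PGC-1 coactivators as partners.

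The genes described here were a list of 39 genes named for these steps: fatty acid binding and uptake, acyl-CoA synthetases, carnitine shuttle, mitochondrial and peroxisomal beta-oxidation, electron transfer, 1 ketone body enzyme, the PPARs with their PGC-1 coactivators, and 3 PPAR targets. Of these, 37 were among the 13519 genes counted. The expression of *Cd36* (a fatty acid transporter) and *Fabp1* (a fatty acid binding protein) was not analysed here, and both enter only the promoter search. All 37 passed the filter on low counts, which removed no gene of the whole list either.

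Bulk RNA-seq was done on 28 samples of colon epithelium organoids from C57BL/6N mice, from 14 cultures of 7 donors, and each culture gave 1 sample with EtOH and 1 with 4-hydroxytamoxifen (4-HT). All organoids carried the VillinCreERT2 transgene, a tamoxifen-inducible Cre driven by the promoter of an intestinal epithelial gene, and *Apc* flox/flox. AC organoids (1 donor) had only these, PAC organoids (2 donors) also carried *Trp53* LSL-R172H/+, BAC organoids (2 donors) *Braf* floxV600E/+, and BPAC organoids (2 donors) both. 4-HT was given at 3.5 µM for 24 hours and RNA was taken 3 days later, so that EtOH samples hold the unrecombined alleles and 4-HT samples the recombined ones. Each donor gave duplicates 1 and 2. AC rests on 1 donor, and since no organoids without floxed alleles received 4-HT, an effect of 4-HT itself and of recombination cannot be told apart. Ages of the mice are not given in the sources used here.

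Counts on genes ranged from 20577276 to 40068718 per sample. In the whole-gene counts, *Apc* was higher with 4-HT in each genotype (log2 fold changes 0.92, 0.67, 0.88 and 0.78 in AC, PAC, BAC and BPAC), which does not check the deletion of an exon, *Braf* lay between -0.30 and 0.07, and *Trp53* was higher by 0.74, 1.51, 0.97 and 1.84. The 4-HT samples of duplicate 1 of both PAC donors stood apart from their labels. Both held *Xist* (25.2 and 22.0 CPM, the counts scaled to a common normalized library total) together with Y-linked transcripts (*Ddx3y* at 13.8 and 13.0 CPM), while each other sample had the one kind and at most 0.291 CPM of the other, and the distance between the pair (23.7) was below that of every other pair (next 40.3). Their donor of origin is therefore uncertain, and the counts of genes called in PAC are given with and without them, except in some alternative settings. Epithelial markers (*Epcam*, *Cdh1*, *Krt8* and 4 more) summed to between 14450 and 27070 CPM per sample, and none of the 7 fibroblast and muscle or 4 adipocyte markers was among the genes counted. A single immune and a single endothelial marker were counted, at no more than 2.71 CPM in any sample.

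With EtOH, the levels of the 37 genes differed widely when compared as CPM per kb of exon. *Fabp2*, the intestinal fatty acid binding protein, was highest at 378 CPM per kb (range 232 to 481 over 14 samples), then *Etfb* at 210 (up to 251) and *Acaa2* at 182 (133 to 240). The ranges of neighbours in this order overlapped. *Pparg* stood 9th at 58.4 CPM per kb (39.6 to 77.5), while *Ppara* had 3.96 (2.87 to 5.09) and *Ppard* 1.62 (1.25 to 2.39), so that the ranges of the 3 receptors did not overlap. The lowest were *Angptl4* at 0.901 (0.228 to 2.20) and *Pdk4* at 0.653 (0.252 to 1.27), which overlapped.

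The promoters of members in RefSeq (GRCm38.p6) were searched for the PPAR:RXR element, 2 copies of the AGGTCA motif in the same direction with 1 base between them, on both strands and with at most 2 mismatches, in the 250 bases before each start. Promoters were found for 35 of the 39 genes (39 promoters), and 5 of them (12.8%) held a match, against 3.24% of all 32851 promoters. A single AGGTCA, which a match can contain, was in 23.1% of the member promoters and in 14% of all. The matches lay before *Cd36*, *Fabp1*, *Plin2*, *Echs1* and *Etfa*, and such a match is a description of letters, not a binding site. The 3 from counted genes are shown because these genes are followed below, with the matched bases in capitals, 5′ to 3′ on the gene's strand. All 3 genes lie on the minus strand, *Plin2* at chr4:86670060-86670309, *Echs1* at chr7:140116422-140116671 and *Etfa* at chr9:55512244-55512493, and the match begins 225, 83 and 77 bases before the start.
Plin2: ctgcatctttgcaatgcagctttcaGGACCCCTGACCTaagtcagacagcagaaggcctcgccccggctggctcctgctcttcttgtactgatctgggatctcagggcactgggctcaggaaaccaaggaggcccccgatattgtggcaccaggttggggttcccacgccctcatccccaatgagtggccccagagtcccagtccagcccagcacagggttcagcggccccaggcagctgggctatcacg
Echs1: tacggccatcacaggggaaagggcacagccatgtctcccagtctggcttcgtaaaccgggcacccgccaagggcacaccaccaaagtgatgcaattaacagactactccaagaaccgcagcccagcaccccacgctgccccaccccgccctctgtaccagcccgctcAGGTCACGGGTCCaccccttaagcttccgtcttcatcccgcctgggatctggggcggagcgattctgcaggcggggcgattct
Etfa: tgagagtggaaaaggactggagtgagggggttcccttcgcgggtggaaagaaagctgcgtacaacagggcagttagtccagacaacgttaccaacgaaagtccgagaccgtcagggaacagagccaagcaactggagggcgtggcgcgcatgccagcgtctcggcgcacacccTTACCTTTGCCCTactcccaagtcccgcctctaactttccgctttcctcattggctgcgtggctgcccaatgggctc

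After 4-HT most of these genes were lower, in every genotype. The median log2 change of the 37 was -0.44, -0.51, -0.64 and -0.69 for AC, PAC, BAC and BPAC, while the median over all genes was 0.01, -0.03, -0.04 and -0.04. By edgeR's quasi-likelihood test with a Benjamini-Hochberg adjusted p under 0.01 over all genes, 28 of the 37 fell and 1 rose in BPAC, where 23% of all genes fell and 22% rose. In BAC 27 fell and 0 rose (all genes 21.5% and 20.3%), in PAC 17 fell and 0 rose (12.2% and 11.2%), and in AC 4 fell and 0 rose (4.25% and 3%). AC had 2 cultures against 4 in each other genotype. Paired by culture, 15 fell in AC, where 8.99% of all genes fell and 7.45% rose, and 27 in PAC (18.4% and 16.5%), and none rose. The further calls in AC were *Cpt1a*, *Acads*, *Hadh*, *Acaa2*, *Ech1*, *Decr1*, *Acaa1a*, *Acaa1b*, *Etfa*, *Pparg* and *Ppargc1b*. In PAC they were *Acsl4*, *Acads*, *Acadvl*, *Acaa1a*, *Etfb*, *Etfdh*, *Ppara*, *Pparg*, *Ppargc1a* and *Plin2*. These 10 rest on the uncertain pair. Paired by culture without it, 3 members fell in PAC (*Fabp2*, *Acadm* and *Hadh*) and 0 rose, where 3.71% of all genes fell and 3.03% rose. This setting was chosen after the data were seen.

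Without both uncertain PAC cultures, of the 17 calls in PAC only that of *Acadm* still passed (-0.65 ± 0.12, adjusted p = 0.0088), where 0.192% of all genes fell and 0.163% rose. The members' median change in PAC was then -0.27 (all genes 0). The PAC values of the other 16 lay between -1.38 (*Pdk4*) and -0.15 (*Hadha*), with adjusted p between 0.022 (*Hadh*) and 0.47 (*Hadha*). The PAC calls of *Cpt2*, *Acadl* and *Decr1* were also lost without Col313 duplicate 2. The number called in PAC was 9 when Col290 duplicate 1 and 6 when Col313 duplicate 1 alone was left out. Without both, the other genotypes gave 6, 27 and 29 calls in AC, BAC and BPAC. The members' medians there were -0.44, -0.64 and -0.69 (all genes 0.01, -0.04 and -0.04). For these counts and the 9 and 6 above, the share of all genes called is not given here.

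The direction was shared by the cultures more than these counts show. A negative change in each of the 14 cultures was seen for 28 of the 37 members and for 19.5% of all genes. In 11 members all 14 samples with 4-HT were below all 14 with EtOH, which held for 6.85% of all genes, and 0 members were above (5.64% of all genes). These 11 were *Fabp2*, *Cpt1a*, *Acadm*, *Hadh*, *Hadha*, *Hadhb*, *Ehhadh*, *Etfa*, *Ppara*, *Ppargc1a* and *Ppargc1b*. Scaling by library size alone moved the median of all genes to 0.23, 0.20, 0.13 and 0.18 in AC, PAC, BAC and BPAC. On that scale the members' medians were -0.22, -0.29, -0.47 and -0.47, and 3, 9, 22 and 23 fell while 0, 0, 3 and 3 rose. On that scale 11.2%, 25.1%, 28.7% and 32% of all genes were called higher and 2.23%, 5.45%, 15.3% and 15.1% lower, in the same order.

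**Figure D1:**
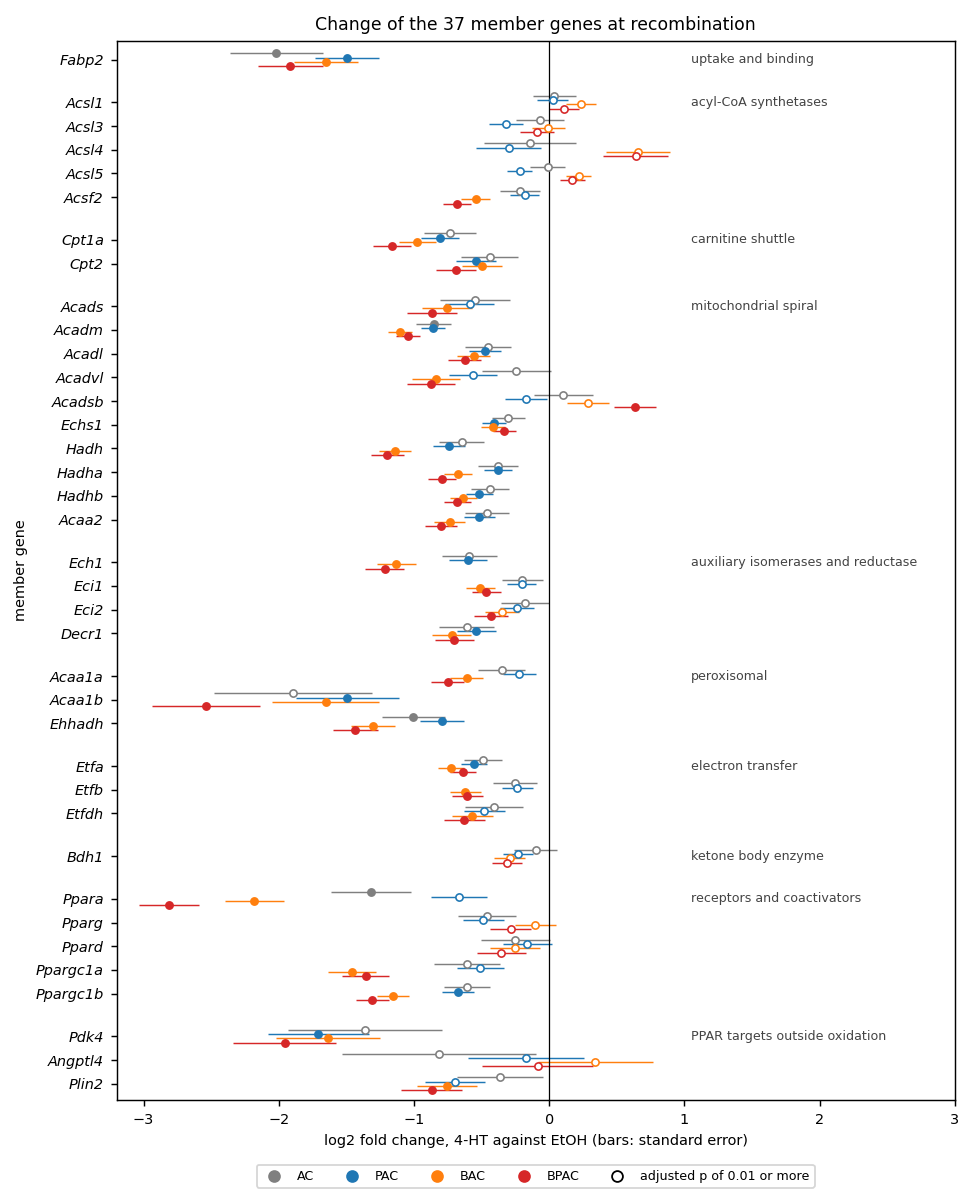
Log2 fold change of each counted gene between 4-HT and EtOH (x axis) by role (y axis), with its standard error as a bar, for AC, PAC, BAC and BPAC. Filled points have an adjusted p under 0.01. Most points lie left of 0, *Ppara* in BPAC reaches -2.81, and the acyl-CoA synthetases *Acsl1*, *Acsl3*, *Acsl4* and *Acsl5* lie near or right of 0 in BAC and BPAC.

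Among the binding proteins, *Fabp2* (ENSMUSG00000023057, chromosome 3 from 122895072 to 122899506, plus strand) fell in all 4 genotypes. Its level with EtOH ran from 224 to 464 CPM (median 364, n = 14). With 4-HT it was 91.3 and 73.2 CPM in AC, 134, 130, 160 and 102 in PAC, 105, 113, 108 and 142 in BAC, and 85.6, 61.9, 132 and 116 in BPAC. No 4-HT sample reached the lowest EtOH sample, and with 4-HT the AC samples lay below those of PAC and BAC, while BPAC overlapped with each of the others. The log2 fold changes were -2.02 ± 0.34 (SE), -1.50 ± 0.24, -1.65 ± 0.24 and -1.91 ± 0.24 for AC, PAC, BAC and BPAC, with adjusted p of 0.00052, 5.6e-05, 3.29e-06 and 3.54e-07. The AC call was lost without either AC culture (adjusted p up to 0.058) and with duplicate 2 alone. The change with the *Braf* allele minus that without it was -0.02 ± 0.26 (adjusted p = 0.97).

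The acyl-CoA synthetases, which activate fatty acids, did not share this pattern. *Acsl1*, *Acsl3*, *Acsl4* and *Acsl5* passed the test in no genotype, and *Acsf2*, a medium-chain synthetase of mitochondria, fell in BAC (-0.54 ± 0.11) and BPAC (-0.68 ± 0.11). *Acsf2* had 85.0 to 119 CPM with EtOH (median 113), 86.0 to 109 with 4-HT without the *Braf* allele (n = 6) and 59.2 to 81.2 with it (n = 8). The samples with the allele lay below all others. *Acsl4*, which prefers arachidonate and other polyunsaturated chains, had 19.9 to 41.0 CPM with EtOH (median 28.04), 19.5 to 37.4 with 4-HT in AC and PAC, and 35.5 to 52.2 in BAC and BPAC. Its log2 change was -0.14 ± 0.34 (AC) and -0.30 ± 0.24 (PAC) without the allele, and 0.66 ± 0.24 (BAC, adjusted p = 0.023) and 0.64 ± 0.24 (BPAC, 0.025) with it, negative in each of the 6 cultures without the allele and positive in each of the 8 with it. Paired by culture it rose in BAC and BPAC and fell in PAC (-0.20, adjusted p = 0.23, without the uncertain pair).

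The carnitine shuttle brings long acyl chains into mitochondria, and *Cpt1a* encodes its outer, rate-limiting transferase. *Cpt1a* had 154 to 256 CPM with EtOH (median 202) and, with 4-HT, 96.0 to 141 in AC and PAC and 80.7 to 113 in BAC and BPAC. All 14 samples with 4-HT were below all 14 with EtOH. Its log2 change was -0.73 ± 0.20 in AC (adjusted p = 0.012), and *Cpt1a* fell in PAC (-0.81 ± 0.14, 0.00011), BAC (-0.97 ± 0.14, 2.55e-06) and BPAC (-1.16 ± 0.14, 1.69e-07). The *Braf* difference of its changes was -0.30 ± 0.15 (adjusted p = 0.21). *Cpt2*, the inner membrane transferase, fell in PAC (-0.54 ± 0.15), BAC (-0.50 ± 0.15) and BPAC (-0.69 ± 0.15).

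Of the 10 genes of the mitochondrial spiral, 1 fell in AC (4 when paired by culture), 7 in PAC (9 when paired, 1 without both uncertain cultures and 2 when paired without them), and 9 in both BAC and BPAC. *Acadm*, the medium-chain acyl-CoA dehydrogenase, was the one that fell in AC (-0.86 ± 0.13, adjusted p = 0.00016), a call lost without either AC culture (adjusted p up to 0.025) and with duplicate 2 alone. It also fell in PAC (-0.86 ± 0.09), BAC (-1.10 ± 0.09) and BPAC (-1.05 ± 0.09), from 122 to 175 CPM with EtOH (median 158) to between 68.4 and 94.3 in the 14 samples with 4-HT. The *Braf* difference for *Acadm* was -0.22 ± 0.10 (adjusted p = 0.15). *Hadha*, the alpha subunit of the trifunctional protein, which acts on long chains, had 208 to 318 CPM with EtOH (median 252), 174 to 199 with 4-HT in AC and PAC, and 150 to 174 in BAC and BPAC. It fell in PAC (-0.38 ± 0.10), BAC (-0.67 ± 0.10) and BPAC (-0.79 ± 0.10), with -0.38 ± 0.15 in AC (adjusted p = 0.076). The PAC call of *Hadha* was lost in 7 of 28 alternatives, among them leaving out either uncertain culture (adjusted p up to 0.083) or both (-0.15). *Hadhb*, the beta subunit, starts close to *Hadha* on the opposite strand of chromosome 5 and fell in the same 3 genotypes (-0.52, -0.64 and -0.68). The strand setting of the counting is not given in the sources used here, so reads of overlapping transcripts may be shared.

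*Hadh*, the short-chain 3-hydroxyacyl-CoA dehydrogenase, had the largest change of this group in BPAC. Its level with EtOH was 256 to 444 CPM (median 366), and with 4-HT 167 to 233 in AC and PAC and 155 to 186 in BAC and BPAC. It fell in PAC (-0.74 ± 0.12), BAC (-1.14 ± 0.12) and BPAC (-1.20 ± 0.12), and AC missed the threshold narrowly (-0.65 ± 0.17, adjusted p = 0.0101). *Acads*, *Acadl*, *Acadvl*, *Echs1* and *Acaa2* cover the short-, long- and very-long-chain dehydrogenases, the hydratase and the thiolase, and all 5 fell in BAC (between -0.84 and -0.42) and BPAC (between -0.87 and -0.33). The BAC call of *Acads* was lost without Col291 duplicate 1 or Col286 duplicate 1 (adjusted p up to 0.014). The BPAC call of *Echs1* was lost without Col287 duplicate 1 (-0.30) or Col312 duplicate 2 (-0.29). *Acadl*, *Echs1* and *Acaa2* fell in PAC as well.

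*Acadsb*, a dehydrogenase of short branched chains from isoleucine breakdown, went the other way. It had 15.6 to 26.1 CPM with EtOH (median 17.8), 15.2 to 22.8 with 4-HT in AC and PAC and 21.7 to 30.2 in BAC and BPAC. It rose in BPAC (0.63 ± 0.16, adjusted p = 0.0013), the sole member called higher in the unpaired test with TMM scaling, with 0.29 ± 0.15 in BAC (adjusted p = 0.12), -0.17 ± 0.16 in PAC and 0.11 ± 0.22 in AC.

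The auxiliary enzymes handle double bonds of unsaturated chains. All 4 fell in BPAC, 3 of them in BAC, 2 in PAC (0 without both uncertain cultures) and 0 in AC (2 when paired by culture, which also added *Eci2* in BAC). *Ech1*, a dienoyl-CoA isomerase, had 182 to 343 CPM with EtOH (median 248), 126 to 182 with 4-HT in AC and PAC and 103 to 137 in BAC and BPAC. It fell by 0.60 on the log2 scale in PAC, 1.13 in BAC and 1.22 in BPAC, each with an SE of 0.14, and was at -0.59 ± 0.20 in AC (adjusted p = 0.044). *Decr1* fell in PAC (-0.54), BAC (-0.72) and BPAC (-0.70), *Eci1* in BAC (-0.51) and BPAC (-0.47), and *Eci2* in BPAC (-0.43). The BPAC call of *Eci2* was lost without Col287 duplicate 1 (-0.32) or Col312 duplicate 2 (-0.42).

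Peroxisomal oxidation shortens very long chains. *Acaa1a* and *Acaa1b* encode near-identical thiolases, and how the authors' counting split reads between them is uncertain. *Acaa1b* had 2.14 to 17.6 CPM with EtOH (median 7.79), a wide spread between cultures, and 1.10 to 5.65 with 4-HT in AC and PAC and 1.37 to 2.72 in BAC and BPAC. The ranges of EtOH and 4-HT overlapped over all samples, and within each culture the 4-HT sample was lower. It fell in PAC (-1.49 ± 0.38), BAC (-1.65 ± 0.39) and BPAC (-2.54 ± 0.40), with -1.90 ± 0.58 in AC (adjusted p = 0.027). *Acaa1a*, at 108 to 159 CPM with EtOH (median 141), had 95.6 to 128 with 4-HT in AC and PAC and 79.0 to 101 in BAC and BPAC, and fell in BAC (-0.61 ± 0.12) and BPAC (-0.75 ± 0.12). Paired by culture, *Acaa1a* also fell in AC and PAC, and *Acaa1b* in AC. In the paired fit without the uncertain pair, *Acaa1a* passed in neither AC nor PAC, while *Acaa1b* still passed in AC. *Ehhadh*, the peroxisomal bifunctional enzyme, fell in all 4 genotypes, by 1.00, 0.79, 1.30 and 1.43 on the log2 scale in AC, PAC, BAC and BPAC, from 39.7 to 76.9 CPM (median 61.5) to between 19.3 and 39.5. The PAC call of *Ehhadh* was lost without either uncertain culture or both (-0.44 without both), and its AC call without either AC culture, with duplicate 2 alone and with library size alone.

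The electron transfer flavoprotein passes electrons from the dehydrogenases to the respiratory chain through *Etfdh*. *Etfa*, its alpha subunit, had 215 to 345 CPM with EtOH (median 282) and 161 to 209 over the 14 samples with 4-HT, without overlap. It fell in PAC (-0.56 ± 0.10), BAC (-0.72 ± 0.10) and BPAC (-0.64 ± 0.10), and was at -0.49 ± 0.14 in AC (adjusted p = 0.017). *Etfb* and *Etfdh* fell in BAC (-0.62 and -0.57) and BPAC (-0.61 and -0.63), and paired by culture also in PAC, though not without the uncertain pair. The BAC call of *Etfdh* was lost without Col291 duplicate 1 or Col286 duplicate 1 (adjusted p up to 0.022), with duplicate 2 alone and with library size alone. *Bdh1*, which interconverts the 2 main ketone bodies, had 133 to 221 CPM with EtOH (median 176) and 126 to 173 with 4-HT, and passed the test in no genotype (between -0.31 and -0.10, adjusted p between 0.021 and 0.74). Paired by culture it fell in BAC and BPAC.

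**Figure D2:**
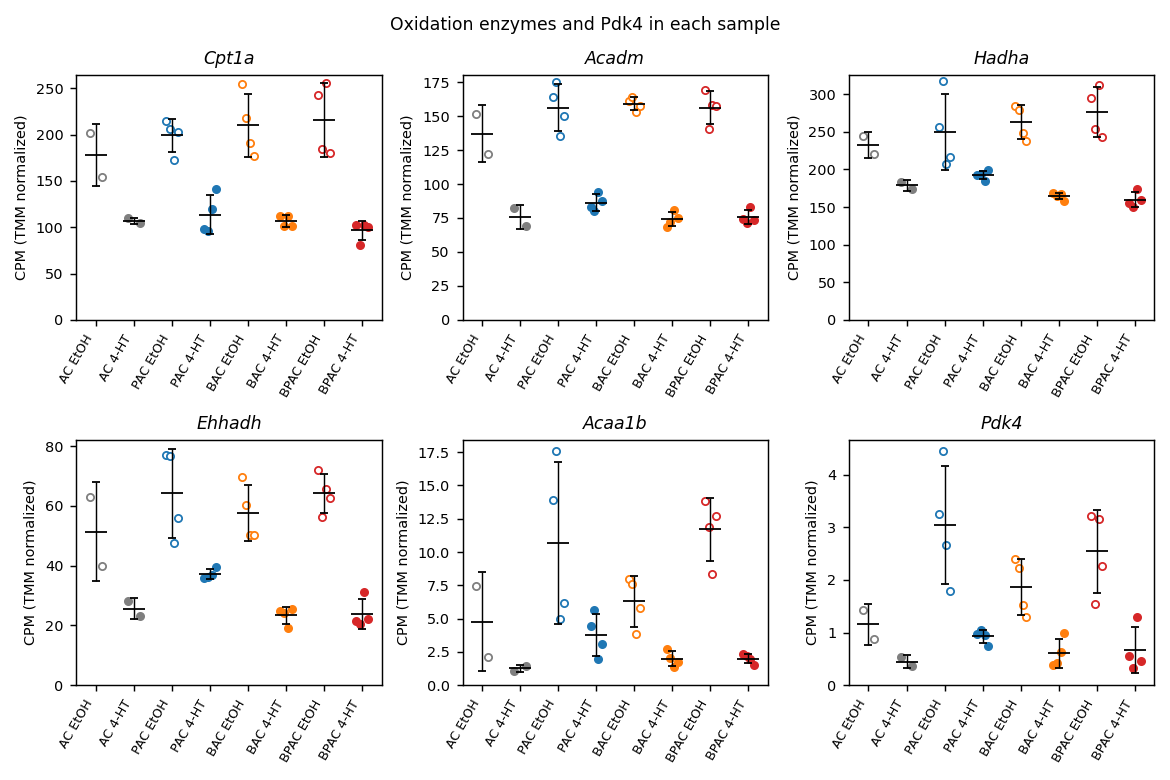
Level of 5 oxidation enzymes and *Pdk4* (y axis, CPM with TMM normalization) in each sample by genotype and treatment (x axis), open points for EtOH and filled points for 4-HT, with the group mean and SD as bars. *Cpt1a*, *Acadm*, *Hadha* and *Ehhadh* show no overlap between the 14 EtOH and the 14 4-HT samples, while *Acaa1b* spreads from 2.14 to 17.6 CPM with EtOH.

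*Ppara* (ENSMUSG00000022383, chromosome 15 from 85734983 to 85802819, plus strand, GRCm38), the receptor that drives fatty acid oxidation in liver and gut, was the one PPAR that passed the test. With EtOH it had 16.0 and 12.2 CPM in AC, 14.7, 18.2, 13.1 and 12.2 in PAC, 13.2, 12.9, 11 and 14.5 in BAC, and 19.5, 17.2, 18.6 and 19.5 in BPAC. With 4-HT it had 6.29 and 4.998 CPM in AC, 9.15, 9.11, 9.96 and 8.56 in PAC, 1.98, 2.76, 2.28 and 4.38 in BAC, and 1.89, 1.88, 3.20 and 3.76 in BPAC. The 8 samples with recombined *Braf* were all below the 6 without it, and those 6 were all below the EtOH samples. *Ppara* fell in AC (-1.32 ± 0.30, adjusted p = 0.0040), BAC (-2.18 ± 0.22, 1.7e-08) and BPAC (-2.81 ± 0.22, 3.84e-10), and was at -0.66 ± 0.21 in PAC (adjusted p = 0.014), where it fell when paired by culture (-0.46, adjusted p = 0.18, without the uncertain pair). The AC call was lost without either AC culture, each of which leaves 1, and with duplicate 2 alone.

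*Pparg* and *Ppard* passed the test in no genotype. *Pparg*, the receptor that is highest in colon epithelium, had 117 to 229 CPM with EtOH (median 174), 94.0 to 129 with 4-HT in AC and PAC, and 135 to 196 in BAC and BPAC. The log2 changes of *Pparg* were -0.46 ± 0.22 (AC), -0.49 ± 0.15 (PAC, adjusted p = 0.014), -0.10 ± 0.15 (BAC) and -0.28 ± 0.15 (BPAC). Paired by culture it fell in AC, PAC and BPAC, with -0.39 (adjusted p = 0.025) in PAC without the uncertain pair. *Ppard* had 9.37 to 18.0 CPM with EtOH (median 12.2) and 6.31 to 12.9 with 4-HT, with changes between -0.35 and -0.16.

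Both PGC-1 coactivators dock on PPARs and raise mitochondrial genes. *Ppargc1a* (PGC-1alpha, ENSMUSG00000029167, chromosome 5 from 51454250 to 51567726, minus strand) had 20.7 and 18.0 CPM in AC, 14.9, 17.1, 16.1 and 23.1 in PAC, 17.6, 19.9, 24.3 and 24.7 in BAC, and 22.4, 18.6, 33.3 and 18.2 in BPAC with EtOH. With 4-HT it had 12.7 and 12.8 CPM in AC, 11.3, 11.2, 14.1 and 13.5 in PAC, 6.43, 8.12, 9.38 and 7.53 in BAC, and 7.56, 9.23, 9.55 and 9.76 in BPAC. The 3 levels, EtOH, 4-HT without and 4-HT with the *Braf* allele, did not overlap. *Ppargc1a* fell in BAC (-1.46 ± 0.18) and BPAC (-1.36 ± 0.18) and was at -0.61 ± 0.24 in AC (adjusted p = 0.090) and -0.51 ± 0.17 in PAC (0.023). *Ppargc1b* (PGC-1beta) had 82.5 to 153 CPM with EtOH (median 99.0), 53.1 to 58.7 with 4-HT in AC and PAC and 38.1 to 52.2 in BAC and BPAC, again without overlap. It fell in PAC (-0.67 ± 0.12), BAC (-1.16 ± 0.12) and BPAC (-1.31 ± 0.12), and was at -0.61 ± 0.17 in AC (adjusted p = 0.015).

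**Figure D3:**
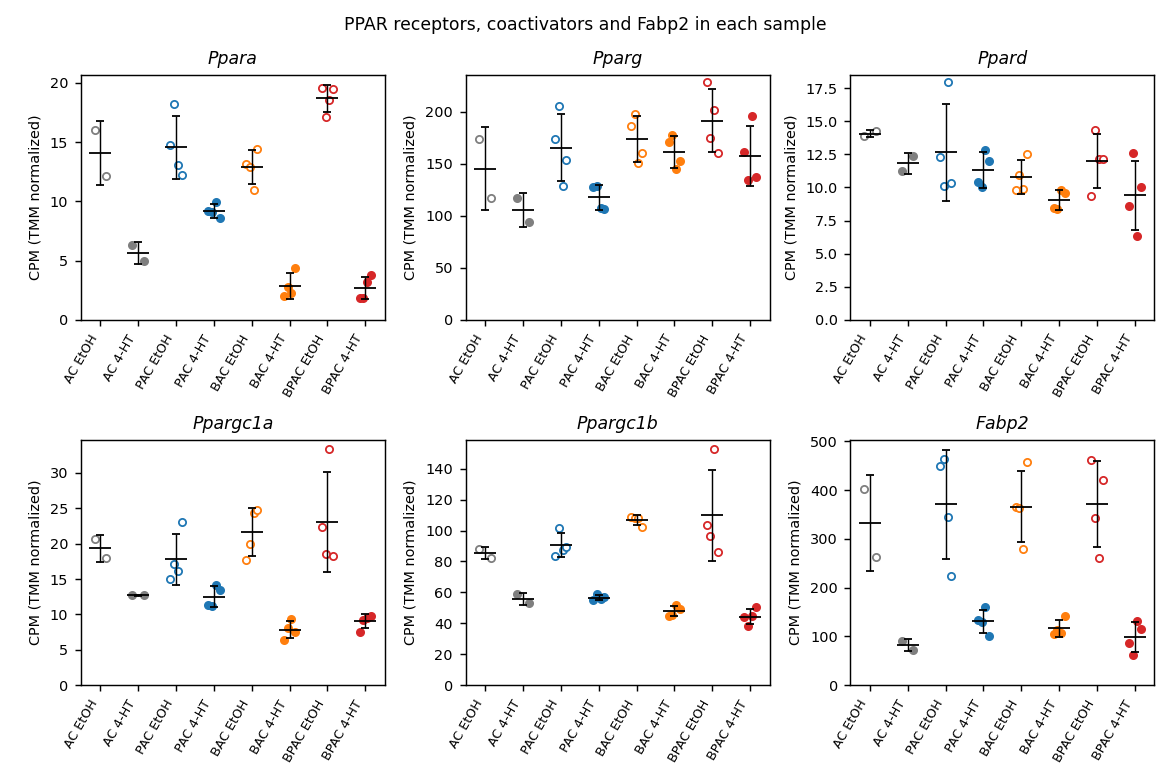
Level of the 3 PPARs, both PGC-1 coactivators and *Fabp2* (y axis, CPM with TMM normalization) in each sample by genotype and treatment (x axis), open points for EtOH and filled points for 4-HT, with the group mean and SD as bars. *Ppara* is between 11 and 19.5 CPM with EtOH, between 4.998 and 9.96 with 4-HT in AC and PAC, and between 1.88 and 4.38 in BAC and BPAC.

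Among the PPAR targets outside oxidation, *Pdk4*, a kinase that restrains pyruvate entry into the citric acid cycle, was low. It had 0.883 to 4.45 CPM with EtOH (median 2.25) and 0.333 to 1.30 with 4-HT, with at least 10 counts in each sample. It fell in PAC (-1.71 ± 0.37), BAC (-1.64 ± 0.39) and BPAC (-1.95 ± 0.38), with -1.36 ± 0.57 in AC (adjusted p = 0.10). The BAC call was lost without Col291 duplicate 1 or Col286 duplicate 1 (adjusted p up to 0.017). *Plin2*, which coats lipid droplets, had 59.0 to 157 CPM with EtOH (median 96.1) and 50.5 to 85.7 with 4-HT, and fell in BAC (-0.76 ± 0.22) and BPAC (-0.87 ± 0.22). Its BAC call was lost without any 1 of the 4 BAC cultures, and so was that of *Cpt2*. Its BPAC call was lost without Col287 duplicate 1 (-0.70, adjusted p = 0.031). *Angptl4*, a secreted inhibitor of lipoprotein lipase, had 0.808 to 7.77 CPM with EtOH (median 3.06) and 0.220 to 6.84 with 4-HT, and passed in no genotype. Its 14 culture changes ran from -1.88 to 1.42.

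Whether the change at recombination differed with BRAF V600E was tested by subtracting the mean change of both genotypes without the allele (AC and PAC) from that of both with it (BAC and BPAC). The 3 members past the threshold were all of the receptor and coactivator group, and each fell more with the allele. They were *Ppara* (-1.50 ± 0.24, adjusted p = 0.00017), *Ppargc1a* (-0.85 ± 0.19, 0.0043) and *Ppargc1b* (-0.59 ± 0.13, 0.0041). Over all genes 3.55% were called lower and 3.05% higher, against 3 and 0 of the 37, and the members' median difference was -0.22 (all genes -0.01). Culture changes of *Ppara* ran from -3.33 to -1.71 (median -2.43) in the 8 cultures with the allele and from -1.34 to -0.39 (median -0.84) in the 6 without. For *Ppargc1a* they ran from -1.80 to -0.89 with and from -0.77 to -0.19 without. For *Ppargc1b* the ranges met, -1.77 to -0.77 with the allele and -0.79 to -0.58 without.

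Without both uncertain PAC cultures the *Ppara* difference was -1.61 (adjusted p = 0.00062), and within duplicates 1 and 2 it was -1.76 (0.00071) and -1.32 (0.058). Without them *Ppargc1a* was at -0.85 (adjusted p = 0.0114) and *Ppargc1b* at -0.60 (0.0117), while 5 members passed, all lower (3.05% of all genes lower and 2.79% higher): *Ppara*, *Hadh* (-0.55, adjusted p = 0.0041), *Ech1* (-0.69, 0.0025), *Acsf2* (-0.54, 0.0053) and *Hadha* (-0.47, 0.0046). Over 28 alternatives, *Ppara* missed the threshold in 1, *Ppargc1a* in 9 and *Ppargc1b* in 7. The 28 include a looser threshold and no low-count filter, which could not lose a call. The calls of *Ppargc1a* and *Ppargc1b* were lost without either AC culture, which leaves 1. With 1 culture left out, differences ran from -1.61 to -1.42 (*Ppara*), -0.92 to -0.75 (*Ppargc1a*) and -0.67 to -0.49 (*Ppargc1b*). Without Col313 duplicate 1 of PAC, 6 of the 37 were called. The share of all genes called there, and with donors summed, is not given here. With both cultures of a donor summed, *Ppara* and *Acsl4* were the 2 called, *Acsl4* at 0.87 (adjusted p = 0.0015). Paired by culture, 7 members were called lower with the allele and 2 higher (7.48% and 6.51% of all genes): *Hadh*, *Ech1*, *Acaa1a* and *Etfb* joined the 3 above, and *Acsl4* (0.91, adjusted p = 1.47e-05) and *Acadsb* (0.51, 0.0037) had a higher change with it. Paired without both uncertain PAC cultures, 12 were lower and 1 higher (7.37% and 6.21% of all genes), the higher one being *Acsl4* (0.85), and *Acadsb* missed the threshold (0.46, adjusted p = 0.0123).

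In 5 members the change was lower in all 8 cultures with the allele than in all 6 without (4.47% of all genes): *Ppara*, *Ppargc1a*, *Hadh*, *Acaa1a* and *Etfb*. In 1 member, *Acsl4*, it was higher in all 8 (4.9% of all genes). *Hadh* changed by -1.33 to -1.01 with and by -0.93 to -0.50 without the allele, *Acaa1a* by -0.80 to -0.51 and -0.49 to -0.18, *Etfb* by -0.80 to -0.48 and -0.32 to -0.17, and *Acsl4* by 0.46 to 0.84 and -0.58 to -0.09. These 4 had adjusted p of 0.017, 0.056, 0.054 and 0.030 in the unpaired test of the difference.

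**Figure D4:**
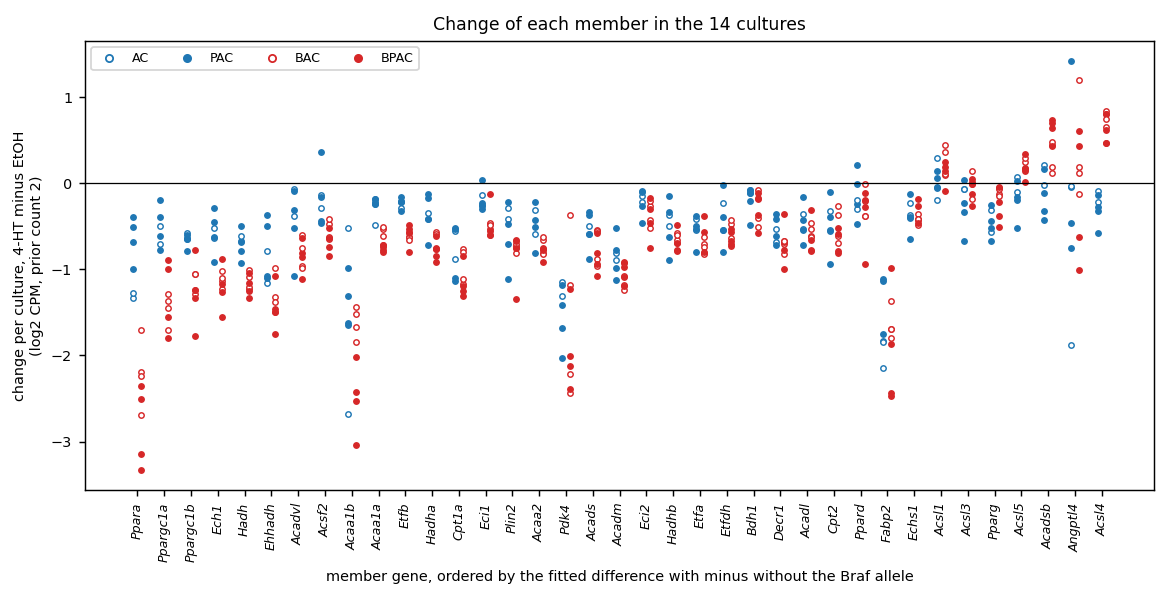
Change of each counted gene in the 14 cultures (y axis, log2 CPM with 4-HT minus EtOH, prior count 2), blue for AC and PAC, red for BAC and BPAC, with genes ordered on the x axis by the fitted difference. *Ppara* at the left separates at -1.71 against -1.34, and *Acsl4* at the right at 0.46 against -0.09, while *Fabp2* overlaps.

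Compared at the level reached with 4-HT, BAC and BPAC differed from AC and PAC in 10 members. This comparison shares its 4-HT samples with those above and lies between donors. In it 6 were higher (15.6% of all genes) and 4 lower (14.6%). Neither count lies clearly above the share of all genes, and neither is read as a result about the members. The higher ones were *Angptl4* (log2 difference 1.81 ± 0.38), *Acsl4* (0.67 ± 0.19), *Pparg* (0.52 ± 0.12), *Acsl5* (0.46 ± 0.07), *Acadsb* (0.41 ± 0.12) and *Acsl3* (0.38 ± 0.10). The lower ones were *Ppara* (-1.39 ± 0.17), *Ppargc1a* (-0.58 ± 0.14), *Acsf2* (-0.47 ± 0.08) and *Ech1* (-0.40 ± 0.11). The *Acadsb* call was lost in 14 of 26 alternatives, among them DESeq2 size factors, library size alone, thinning and leaving out both uncertain PAC cultures. The call of *Angptl4* was lost without AC duplicate 1 (1.46, adjusted p = 0.014) and with duplicate 2 alone. With 4-HT *Angptl4* had 0.220 and 0.863 CPM in AC, from 7 and 24 counts, 2.27 to 2.78 in PAC, 1.60 to 4.66 in BAC and 2.49 to 6.84 in BPAC, so that PAC lay inside the range of BAC. The call of *Pparg* was lost without AC duplicate 2 (0.44, adjusted p = 0.017) and with duplicate 1 alone. That of *Acsl4* was lost in 9, among them leaving out both uncertain PAC cultures or either, and that of *Ech1* in 8. That of *Acsl3* was lost in 5, among them either AC culture left out and both cultures of a donor summed. *Ppargc1a* lost its call in 2, with donors summed and with duplicate 2 alone. Before recombination, with EtOH, 0 members differed with the *Braf* allele by edgeR, limma-voom or DESeq2 (all genes 0.0222% higher and 0.0074% lower by edgeR). At an unadjusted p under 0.05, 9 were higher and 0 lower, where 9.31% of all genes were higher and 7.85% lower. *Angptl4* had a log2 difference of 1.19 ± 0.37 there (adjusted p = 0.13).

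Mutant *Trp53* was tested by subtracting the mean change of AC and BAC from that of the genotypes with the allele (PAC and BPAC). By edgeR 0 members passed, 0 also had an unadjusted p under 0.05, and limma-voom and DESeq2 called 0. Over all genes 0.0074% were higher and 0.0074% lower, which is 1 gene each, *Trp53* itself being the higher one (0.82 ± 0.12). The members' differences ran from -0.33 ± 0.44 (*Pdk4*) to 0.13 ± 0.26 (*Fabp2*), the lowest unadjusted p being that of *Acsl5* (-0.13 ± 0.10, adjusted p = 1.0). This contrast averages over both *Braf* states, and differences of opposite sign cancel in it. *Ppara* changed by -1.32 in AC and -0.66 in PAC, but by -2.18 in BAC and -2.81 in BPAC, and whether these differences differed was not tested.

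The other genes of the pathway, a list of 62 of which 53 were counted, had median log2 changes of -0.41, -0.49, -0.65 and -0.69 in AC, PAC, BAC and BPAC. For AC, PAC, BAC and BPAC, 8, 27, 31 and 33 of the 53 fell and 1, 2, 3 and 2 rose, where 4.25%, 12.2%, 21.5% and 23% of all genes fell. Without both uncertain PAC cultures, 0 of the 53 fell in PAC (median -0.36) and 1 rose, and paired by culture 16 fell in AC. All 12 counted genes of the carnitine and peroxisome group fell in PAC (0 without both uncertain cultures), 5 in AC, and 11 in each of the genotypes with the *Braf* allele. Of the 9 receptors and cofactors, 0, 3, 3 and 3 fell and 1, 2, 2 and 1 rose for AC, PAC, BAC and BPAC. Without both uncertain cultures 0 fell and 1 rose in PAC. Of the 4 uptake and binding genes, 1, 1, 2 and 2 fell (0 in PAC without both uncertain cultures) and 0 rose, with a median of 0.33 in AC. *Slc25a20*, the carnitine-acylcarnitine carrier, was at -1.31, -1.14, -1.80 and -1.98 in AC, PAC, BAC and BPAC, and was chosen after its values were seen. *Pprc1*, a PGC-1-related coactivator also chosen so, rose in all 4 (0.79, 0.99, 1.29 and 1.23).

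Some of these genes also differed with the *Braf* allele in their change, and those given here were lower with it. *Slc27a2*, a very-long-chain acyl-CoA synthetase and transporter, had 1.16 to 2.20 CPM with 4-HT in AC and PAC and 0 to 0.238 in BAC and BPAC, but 1 BAC culture (Col286 duplicate 2) was already at 0.207 with EtOH. *Acad12* (-0.72 ± 0.18) and *Decr2* (-0.44 ± 0.10), the peroxisomal dienoyl-CoA reductase, were lower as well, with adjusted p of 0.0078 and 0.0031.

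Markers of absorptive colonocytes, the cells known for fatty acid use, moved with the members. Of 10 (*Car1*, *Car4*, *Aqp8*, *Slc26a3* and others), 6, 7, 9 and 10 fell for AC, PAC, BAC and BPAC, and 0 in PAC without both uncertain cultures (median log2 change -1.13). Their summed level went from 19290 to 21370 CPM with EtOH to 5586 to 6124 with 4-HT in AC, from 19330 to 22390 to 6798 to 11010 in PAC, from 15520 to 17360 to 4289 to 6522 in BAC, and from 17870 to 25610 to 3009 to 7428 in BPAC. The summed level of the 37 members went from 3992 to 4973 CPM to 3061 to 3383 in AC, from 4279 to 6340 to 3476 to 3655 in PAC, from 4857 to 5751 to 3343 to 3530 in BAC, and from 5063 to 6111 to 3073 to 3774 in BPAC. Of the 7 epithelial markers, 0, 2, 4 and 4 fell and 0 rose for AC, PAC, BAC and BPAC (2 in AC when paired by culture, 0 in PAC without both uncertain cultures), with median log2 changes of -0.23, -0.26, -0.49 and -0.47. Their summed level went from a mean of 19630 to 16930 CPM in AC, from 20940 to 17750 in PAC, from 20690 to 16790 in BAC and from 22120 to 15730 in BPAC. Stem and cycling markers (*Lgr5*, *Ascl2*, *Mki67*, *Top2a*) rose, 2 of 4 in AC and in PAC (1 in PAC without both uncertain cultures), 3 in BAC and 4 in BPAC. Of 3 small intestinal or Paneth cell markers counted, 1 rose and 1 fell in PAC (0 and 0 without both uncertain cultures) and in BPAC, 1 fell in BAC and 0 passed in AC (1 at an unadjusted p under 0.05). The summed level of these 3 went from a mean of 67.6 to 387 CPM in AC, from 49.0 to 352 in PAC, from 59.3 to 88.8 in BAC and from 31.7 to 118 in BPAC. In these bulk samples fewer cells of a type and less RNA per cell cannot be told apart, and the part of a change in cell makeup in the members' results was not tested.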

How the data were processed

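Bulk RNA-seq was analysed for all 28 samples, grouped by genotype and treatment as the labels give them. Per the labels, the authors trimmed reads with Trimmomatic 0.39 and aligned them with STAR 2.5.2b to GRCm38. The authors deposited raw counts per gene without normalization. The counting program, annotation and strand setting are not given in the sources used here. Identifiers were matched to GENCODE symbols for 13479 of 13519 genes, and the lowest row sum was 116. Totals were 20577276 to 40068718 counts, which carry no molecular identifiers. Counting error is largest for *Angptl4* and *Pdk4*, with as few as 7 and 10 counts in a sample. The biological coefficient of variation was 0.191.

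TMM factors and edgeR 4.0.16 (R 4.3.3) were used for 1 fit of 8 groups, after a row sum filter above 2, with Benjamini-Hochberg adjustment over all genes and a threshold of 0.01. Contrasts were two-sided. Values are CPM, with a prior count of 2 for culture changes. SE are those of the log2 fold change. P-values measure the spread between cultures, of which each donor gave 2. Duplicate numbers of a donor mark its EtOH and 4-HT samples as 1 culture, and they were taken as paired by these labels. The correlation of their deviations from the group means was 0.245 to 0.532 over the 14 cultures. Unmatched samples were not compared, so it cannot tell a shared culture from a shared donor or duplicate number. The lowest correlation was that of Col290 duplicate 1, and a paired fit without the uncertain PAC pair was added after the data were seen. Members called in addition when paired by culture are named in the report. The label of 1 BAC 4-HT sample of Col291 has no duplicate number and was taken as duplicate 1.

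Alternatives were limma-voom (limma 3.58.1), DESeq2 1.42.0, other scalings, filters and thresholds, thinning, culture blocks, donor sums, each duplicate alone, and cultures left out. The looser threshold and the fit without a filter could not lose a call. Scripts were tested on simulated data. Values are given for every member past the threshold in the *Braf* comparison, the largest change in BPAC of each role and 16 members always named. The members and all lists were chosen with earlier results of these data known. Some results on other genes of the pathway are not reported here. Sequences are from RefSeq.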

Additional observations from a re-analysis of the deposited data

Results flagged for a closer look

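The 4-HT changes of *Ppara*, *Ppargc1a* and *Ppargc1b* differed with the *Braf* allele, by -1.50, -0.85 and -0.59 on the log2 scale (edgeR test of the difference). Over 28 alternatives *Ppara* missed the threshold in 1, *Ppargc1a* in 9 and *Ppargc1b* in 7. Without both uncertain PAC cultures the last 2 had adjusted p of 0.0114 and 0.0117 in this test.

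In 3 of 111 groups of 4 cultures, 1 culture was flagged as lying apart from the other 3. Chance alone flags about 1 in 20, and 3 of 111 is below that rate. In BPAC, *Acaa2* changed by -0.91 in Col287 duplicate 1 and by -0.78 to -0.75 in the others. *Plin2* changed by -1.34 in the same culture and by -0.76 to -0.66 in the others. *Eci1* changed by -0.12 in Col287 duplicate 2 and by -0.60 to -0.53 in the others.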

How the results depend on the processing

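Over 90 member values called in the tests, 0 changed sign under any alternative. In BAC (27 called) and BPAC (29) the fewest members were called with duplicate 2 alone, 18 (17 of them among the 27) and 20. In AC (4) it was 9 with DESeq2, 12 at an adjusted p of 0.05, 15 with the replicate block, 7 in duplicate 1 alone, 0 in duplicate 2 alone, and 0 to 7 with each culture left out. In PAC (17) it was 9 with library size alone, 27 with the replicate block, 27 in duplicate 1 alone, 0 in duplicate 2 alone, 1 without both duplicate 1 cultures of PAC, and 6 to 20 with each culture left out. For the *Braf* difference of changes (3) it was 6 with DESeq2, 9 at an adjusted p of 0.05, 9 with the replicate block, 0 in duplicate 2 alone, 5 without both duplicate 1 cultures of PAC, and 1 to 6 with each culture left out. For the level with 4-HT (10) it was 16 at an adjusted p of 0.05, 3 in duplicate 2 alone, and 5 (without AC duplicate 1) to 11 with each culture left out. The single duplicates have fewer samples, and beyond that the cause was not tested. The share of all genes called is not given for most of these settings. Their counts describe the setting and are not read as a result about the members. The replicate block ended no call among the 80 member values it could test. With both duplicate 1 cultures of PAC also left out, a setting added after the data were seen, it ended 14 and called 16 members in AC, 3 in PAC and 13 for the *Braf* difference. A culture left out of AC leaves 1, assumed to vary like the other groups. Donors could not be summed for AC, which has 1. In duplicate 2 alone, 50 of the 90 called values missed the threshold.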
